A study of Mus musculus with 9 samples.

Results

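miR-22 is a microRNA whose hairpin precursor yields a mature strand from each arm, miR-22-3p and miR-22-5p. The members were both arms of the Mir22 hairpin, with every read start within 5 nt of them. They were located at the 5′ ends where the reads per 1000000 mapped reads (RPMM) equalled the values that the study lists under these names. This gave 3 of the 414 5′ ends that the study lists for MIN6 cells and liver, namely miR-22-3p, miR-22-5p and a form of miR-22-3p that starts 1 nt downstream (miR-22-3p+1). miR-22 was chosen by its measured levels, since miR-22-3p is abundant and higher in TruSeq libraries, and so its levels, the ratios between protocols and the ratio of the arms are given as a description, with no test. The shape of its reads (length, added 3′ bases, shifted starts) was not itself used to choose it and was tested where replicates allowed. A share of miR-22-3p reads has the level of miR-22-3p as its denominator, however, so these tests are not independent of that choice.

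The data were small RNA-seq libraries that were prepared with several commercial kits. MIN6 is a mouse insulinoma cell line with features of pancreatic beta cells, here grown in DMEM with 25 mM glucose and 10% fetal bovine serum and otherwise untreated. Its RNA gave 3 TruSeq libraries (TS-GAIIx) and 3 v1.5 libraries (v1.5-GAIIx) on the Illumina GAIIx, described as biological replicates, and 1 NEXTflex V2 library on the HiSeq (NF-HiSeq-6). The liver came from 1 female C57BL/6J mouse, bought at 9 weeks of age as a control animal, injected with saline 7 days before and fasted overnight, and the same RNA gave 1 TruSeq library (TS-HiSeq-ML) and 1 NEXTflex library (NF-HiSeq-ML). TruSeq and v1.5 ligate adapters of fixed sequence, whereas the NEXTflex adapters carry random bases at the ends that are ligated. The TS-GAIIx and v1.5-GAIIx libraries shared facility, date and platform. The study lists the same RNA integrity number for these 6 libraries, and the p-values below measure only the spread between them, which may be technical. NF-HiSeq-6 differed from them in facility, date, platform and RNA, and these cannot be told apart from the protocol.

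A microRNA precursor is cut from its transcript by Drosha and then by Dicer, and of the resulting duplex mainly 1 strand is kept by an Argonaute protein. Bases 2 to 8 of that strand, the seed, pair with target mRNAs and lower their translation and stability. The 3′ end is more variable, since the cuts can shift, exonucleases can shorten it, and nucleotidyl transferases can add A or U that the genome does not encode. miR-22 is conserved among vertebrates, is found in many tissues and has been studied in heart muscle, blood and liver. The mRNA targets were not measured here.

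The sequences below are those of the mature arms and their precursor from RefSeq (GRCm38.p6), which show the bases that meet the adapters and the seeds. In the arms the seed is in capitals, and in the hairpin the arms are in capitals.
miR-22-3p: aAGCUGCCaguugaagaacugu
miR-22-5p: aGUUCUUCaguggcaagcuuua
Mir22 hairpin: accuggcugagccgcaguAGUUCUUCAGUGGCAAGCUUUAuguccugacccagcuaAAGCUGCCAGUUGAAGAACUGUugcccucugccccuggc
The hairpin of 95 nt lies at chr11:75463716-75463810 of GRCm38 on the plus strand, with miR-22-5p at chr11:75463734-75463755 and miR-22-3p at chr11:75463772-75463793. It falls in exon 2 of Mir22hg, a noncoding host gene, and that exon spans chr11:75463693-75463857 in the 3-exon transcript. In the mm9 coordinates of the deposited alignments, the listed 5′ ends are at base 75277236 (miR-22-5p) and base 75277274 (miR-22-3p) of chromosome 11. The starts are 38 nt apart in both builds. The seed of each arm was found in 1 mature mouse miRNA of the RefSeq table, miR-22 itself.

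Over the 9 libraries, the deposited counts summed to between 6923460 and 25638900 reads. The chi-square statistic of replicate pairs over the highly expressed miRNAs, divided by its degrees of freedom, was 34.2 to 132, so that none of the 6 GAIIx libraries was a second deposit of another of its group. The summed level of 4 beta-cell-like markers (miR-375-3p, miR-7a-1-5p, miR-182-5p, miR-183-5p) was 92937 to 223668 RPMM in MIN6 and 478 to 914 RPMM in liver, and that of 3 hepatocyte markers (miR-122-5p, miR-192-5p, miR-194-1-5p) was 535 to 1473 RPMM in MIN6 and 101504 to 542499 RPMM in liver. Confidence intervals given below are 95% Wilson intervals for counting error only, since reads carried no molecular identifiers and copies made by PCR were counted as reads.

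miR-22-3p was 1 of the most abundant miRNAs in the TruSeq libraries of MIN6 cells and ranked lower with the other kits. Its level was 42226, 42103 and 42600 RPMM in the 3 TS-GAIIx libraries, which is 4.21% to 4.26% of all mapped reads. It was 3576, 3364 and 2760 RPMM in the 3 v1.5-GAIIx libraries and 599 RPMM (590 to 609) in NF-HiSeq-6. The levels did not overlap between protocols, and the lowest TS-GAIIx library stood above every other library of the series. Among the 262 reference miRNA starts with at least 100 RPMM in at least 1 MIN6 library (highly expressed), miR-22-3p ranked 3 in each TS-GAIIx library, while its rank was 43, 44 and 51 with v1.5-GAIIx and 84 in NF-HiSeq-6.

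**Figure D1:**
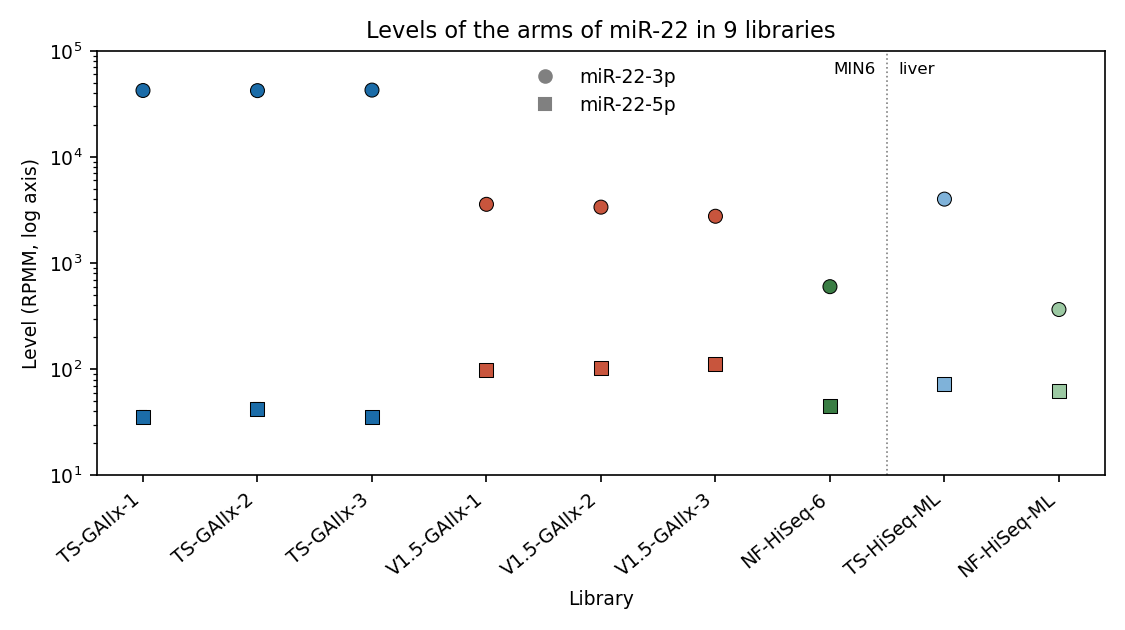
Level of miR-22-3p (circles) and miR-22-5p (squares) in each library, in RPMM on a log axis, with 95% Wilson intervals that are mostly smaller than the symbols. miR-22-3p lies at 42103 to 42600 RPMM in TS-GAIIx and at 599 RPMM in NF-HiSeq-6, while miR-22-5p stays between 35.2 and 112 RPMM in all 9 libraries.

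For miR-22-3p, TS-GAIIx averaged 42310 ± 259 RPMM and v1.5-GAIIx averaged 3233 ± 423 RPMM (SD over 3 libraries), and their ratio of 13.1 was the 7th highest of the 352 highly expressed 5′ ends. Ratios are of group means with 1 RPMM added. A ratio of more than 10 in favor of TS-GAIIx was found for 10 of the 352 (2.84%), and 127 of them (36.1%) had every TS-GAIIx library above every v1.5-GAIIx library. Of the 352 ends the median log2 ratio was -0.63, so that most ends were lower in TS-GAIIx, and scaling by DESeq2 size factors moved this median by 0.58 and the ratio of miR-22-3p to 20.1. Against NF-HiSeq-6 the ratio was 70.5, the 9th highest of 352, of which 42 (11.9%) passed 10-fold. The v1.5-GAIIx mean was 5.39 times the level in NF-HiSeq-6, the 79th highest ratio, and 41 ends (11.6%) passed 10-fold there.

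miR-22-3p was also compared with miR-30e-5p, the reference miRNA of the study. The level of miR-22-3p was 4.07 ± 0.369 times that of miR-30e-5p with TS-GAIIx, against 0.279 ± 0.0479 times with v1.5-GAIIx (SD over 3 libraries). It was 0.105 times that of miR-30e-5p in NF-HiSeq-6. In liver it was 0.909 times that of miR-30e-5p in TS-HiSeq-ML and 0.178 times in NF-HiSeq-ML, so that miR-22-3p was above this miRNA in the TS-GAIIx libraries and below it in the other 6, the TruSeq library of liver included.

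miR-22-5p, the less abundant arm, had a different order of protocols. It was at 35.8, 42.6 and 35.2 RPMM in the TS-GAIIx libraries, from 238, 292 and 424 reads. The v1.5-GAIIx libraries had 98.4, 103 and 112 RPMM, and NF-HiSeq-6 had 45.5 RPMM (42.9 to 48.2). All 3 v1.5-GAIIx libraries were above the others of MIN6, and the interval of NF-HiSeq-6 overlapped that of TS-GAIIx-2 alone (38.0 to 47.8 RPMM) and lay above those of TS-GAIIx-1 and TS-GAIIx-3. TS-GAIIx averaged 37.9 ± 4.13 RPMM and v1.5-GAIIx 104 ± 6.68 RPMM (SD over 3 libraries), which is a ratio of 2.71 in favor of v1.5-GAIIx. As TS-GAIIx over v1.5-GAIIx this ratio was 0.369, and it was 0.562 with DESeq2 size factors. The TS-GAIIx mean was 0.837 times the level in NF-HiSeq-6. Over the 352 ends, 154 (43.8%) were more than 2-fold higher in v1.5-GAIIx, and 197 (56.0%) had every v1.5-GAIIx library above every TS-GAIIx library. miR-22-5p was among the highly expressed ends only because V1.5-GAIIx-2 and V1.5-GAIIx-3 exceeded 100 RPMM.

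**Figure D2:**
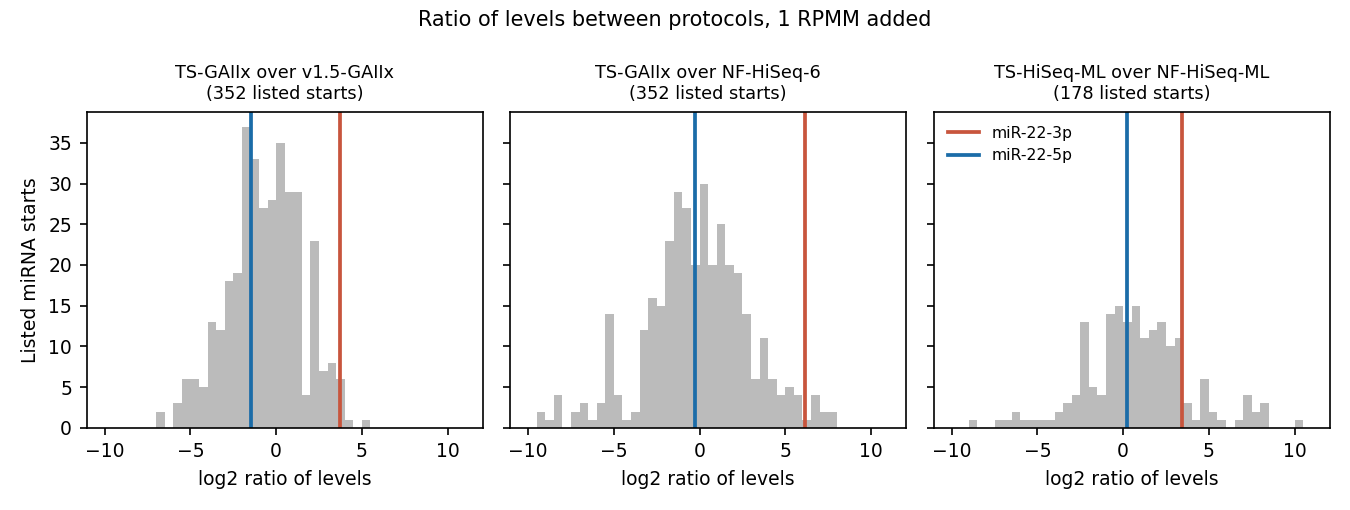
Histograms of the log2 ratio of levels (1 RPMM added) over the listed 5′ ends for TS-GAIIx over v1.5-GAIIx, TS-GAIIx over NF-HiSeq-6 and TS-HiSeq-ML over NF-HiSeq-ML, with vertical lines at miR-22-3p and miR-22-5p. miR-22-3p is at 3.71, 6.14 and 3.45, toward the right of each histogram, and miR-22-5p is at -1.44, -0.26 and 0.20.

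The ratio of the arms differed between the groups of libraries. Each read was counted once at its 5′ end, so no scaling by length entered. The level of miR-22-3p divided by that of miR-22-5p was 1179, 987 and 1210 in the TS-GAIIx libraries. The v1.5-GAIIx libraries gave 36.4, 32.6 and 24.7, and NF-HiSeq-6 gave 13.2. In liver the ratio was 55.7 with TruSeq and 5.85 with NEXTflex. miR-22-3p was the more abundant arm in all 9 libraries. Reads on the hairpin that started outside the windows of both arms summed to between 0 and 66.4 per library, and none lay on the opposite strand.

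In liver, where miR-22 has been studied for its part in metabolism, miR-22-3p was again higher with TruSeq. It was at 4003 RPMM (3973 to 4034) in TS-HiSeq-ML, rank 25 of the 129 highly expressed reference starts of liver, and at 365 RPMM (355 to 375) in NF-HiSeq-ML, rank 65. The ratio was 10.9, the 25th highest of 178 liver ends, of which 29 (16.3%) passed 10-fold, and it was 18.7 when the reads on listed miRNAs served as denominator. miR-22-5p was at 71.9 RPMM (67.9 to 76.1) in TS-HiSeq-ML and at 62.4 RPMM (58.5 to 66.6) in NF-HiSeq-ML, below the limit of 100 RPMM in both. Its ratio of 1.15 became 1.96 with that other denominator. With 1 library for each protocol in liver, these differences have no replicate check.

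The ratio of MIN6 to liver was not the same in the TruSeq and the NEXTflex libraries. The TruSeq libraries of MIN6 and liver also differed in platform (GAIIx and HiSeq), whereas both NEXTflex libraries were sequenced on the HiSeq. By the study's methods, RNA was isolated with TRIzol at NIH, where the GAIIx libraries were sequenced, and with a Norgen kit from liver. Platform, RNA isolation and protocol therefore cannot be told apart here. For miR-22-3p the TS-GAIIx mean was 10.6 times the level in TS-HiSeq-ML, whereas NF-HiSeq-6 was 1.64 times NF-HiSeq-ML. Over the 410 ends with at least 100 RPMM in any library, 166 (40.5%) were more than 10-fold higher in TS-GAIIx than in TS-HiSeq-ML, and 206 (50.2%) were so with NEXTflex. miR-22-5p was lower in MIN6 than in liver with both, at 0.533 times with TruSeq and 0.733 times with NEXTflex. In RNA from tissue, fewer cells of a type and less RNA per cell cannot be told apart. The liver also held miRNAs of other cells. The 2 placed blood markers of 4 (miR-451 and miR-142-5p) summed to 4002 RPMM in TS-HiSeq-ML, 79.4 RPMM in NF-HiSeq-ML and at most 5.26 RPMM in MIN6. Of 4 markers of endothelium and muscle, only miR-126-3p of endothelium was placed. It was at 463 RPMM in TS-HiSeq-ML and 1884 RPMM in NF-HiSeq-ML, against 11.4 to 208 RPMM in MIN6. The part of these cells in the levels of miR-22 was not tested.

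Across the 7 MIN6 libraries, the 5 miRNAs whose level (log10, 1 RPMM added) followed that of miR-22-3p most closely were miR-149-5p (Pearson r = 0.998), miR-330-5p (0.998), let-7b-3p (0.996), miR-151-5p (0.994) and miR-369-5p (0.991), out of 235 others. These points share libraries and depth, and the level of each of these miRNAs fell in the order TruSeq, v1.5, NEXTflex. The closest, miR-149-5p, had a mean of 909 RPMM with TS-GAIIx and of 122 RPMM with v1.5-GAIIx, and 37.2 RPMM in NF-HiSeq-6. For miR-22-5p they were miR-140-5p (0.995), miR-210-3p (0.994), miR-1981-5p (0.993), miR-200a-3p (0.990) and miR-137-3p (0.990), which like it were highest with v1.5. miR-140-5p had a mean of 55.2 RPMM with TS-GAIIx and of 662 RPMM with v1.5-GAIIx, and 101 RPMM in NF-HiSeq-6. The miRNAs that share terminal bases with miR-22-3p were mixed in direction. Of the 14 other highly expressed miRNAs that end in UGU, 3 were higher in TS-GAIIx (median ratio 0.343), and of the 6 others that begin with AAG, 2 were. Of the 24 others that end in GU, 10 were higher in TS-GAIIx (median ratio 0.627), and of the 20 others that begin with AA, 7 were (0.434). Among all 199 with a RefSeq sequence, 89 were higher in TS-GAIIx and the median ratio was 0.813.

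The 3′ end of miR-22-3p was nearly uniform in TruSeq libraries and less so with the other kits. The share of reads from the reference start that ended at template base 22 was 97.7%, 97.6% and 97.5% in TS-GAIIx and 92.4%, 92.5% and 92.3% in v1.5-GAIIx. NF-HiSeq-6 had 92.1% (91.6 to 92.5). In liver it was 95.0% (94.8 to 95.1) with TruSeq and 63.3% (62.0 to 64.6) with NEXTflex. The TS-GAIIx libraries were thus above all others in this share, and NF-HiSeq-ML stood far below all others.

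Some of the forms that differed between libraries carry bases beyond the reference end. They are written here with the templated bases in lower case and the untemplated bases in capitals, and the form with 23 bases is templated throughout because the genome continues with U.
22 nt: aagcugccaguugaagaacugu
23 nt: aagcugccaguugaagaacuguu
22 nt + A: aagcugccaguugaagaacuguA
22 nt + AA: aagcugccaguugaagaacuguAA
22 nt + AU: aagcugccaguugaagaacuguAU
An added U after base 22 cannot be told from the genome, so that only U added after another untemplated base, or after a shorter or longer end, was countable.

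Reads of miR-22-3p whose last base was an untemplated A were rare in TruSeq and common in v1.5. All reads with an untemplated last A made up 0.197%, 0.193% and 0.209% of reads in TS-GAIIx, while the shares in v1.5-GAIIx were 2.70%, 2.88% and 2.96%. The log2 odds were 3.87 higher in v1.5-GAIIx (SE 0.05, limma, Benjamini-Hochberg adjusted p = 1.26e-09 over 262 miRNAs), which is a 14.6-fold difference in odds. The test called 175 of the 262 miRNAs (66.8%) in either direction. Of these, 114 (43.5% of 262) had a higher share of untemplated A in v1.5-GAIIx by this test and 61 (23.3%) a lower one, and the difference of miR-22-3p ranked 3 from the top. The position of miR-22-3p among other miRNAs changed with the kit. Its share ranked 219 to 232 from the top of the 238 to 249 miRNAs with at least 100 reads in the TS-GAIIx libraries (medians 1.48% to 1.65%), and 86 to 97 of 256 to 258 in the v1.5-GAIIx libraries (medians 1.94% to 2.09%). NF-HiSeq-6 had 2.28%, TS-HiSeq-ML had 1.21% and NF-HiSeq-ML had 9.18%, so that NEXTflex was higher than TruSeq in both sources.

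**Figure D3:**
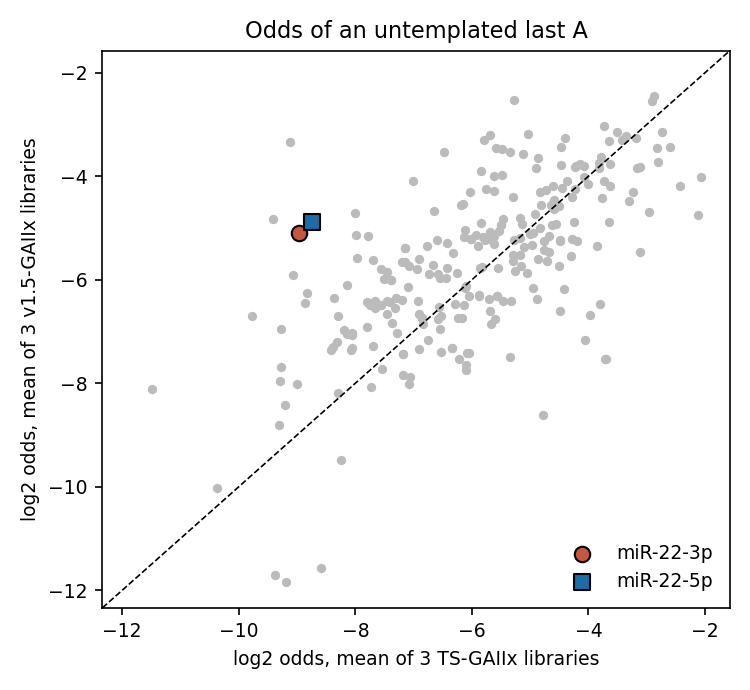
Log2 odds that a read ends in an untemplated A, as the mean of the 3 v1.5-GAIIx libraries against the mean of the 3 TS-GAIIx libraries, for each of 262 highly expressed miRNAs (grey points), with a dashed line at equality. miR-22-3p (-8.96 and -5.09 for TS-GAIIx and v1.5-GAIIx) and miR-22-5p (-8.74 and -4.88) lie side by side far above the line.

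As a share of miR-22-3p reads, an untemplated last U was rarer than A in TS-GAIIx and v1.5-GAIIx but differed in the same direction. This share, too, depends on the level by which miR-22 was chosen. The share was 0.00855%, 0.00590% and 0.00702% in TS-GAIIx and 0.131%, 0.121% and 0.167% in v1.5-GAIIx. The log2 odds were 4.27 higher in v1.5-GAIIx (SE 0.18, limma adjusted p = 4.78e-06), rank 2 of 262 when the differences are ordered from the highest in v1.5-GAIIx to the lowest. Of the 185 miRNAs called in either direction (70.6%), 85 (32.4%) were higher and 100 (38.2%) lower in v1.5-GAIIx. An untemplated last G went the other way in value, with 0.231%, 0.222% and 0.231% of reads in TS-GAIIx and 0.0954%, 0.0897% and 0.0942% in v1.5-GAIIx, which was not tested.

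The AU form and the form with a single added A had far larger shares of the miR-22-3p reads in NF-HiSeq-ML than in any other library. The AU form had 1276 of 5252 reads, or 24.3% (23.2 to 25.5), and the form with a single added A had 9.16% (8.41 to 9.97). Elsewhere the AU form reached at most 0.0663%, in V1.5-GAIIx-3, and it was at 0 of 15322 reads in NF-HiSeq-6, which allows a share of up to 0.0196% (3 counts). TS-HiSeq-ML, which was made from the same liver RNA, had 0.0182% of reads whose last bases were an untemplated AU. In NF-HiSeq-ML an AU end was the most frequent for miR-22-3p among 126 miRNAs (median 0%, 95th percentile 4.18%). miR-22-5p of the same library had no such read among 898, which allows up to 0.334%. NF-HiSeq-6 had instead an AA form at 1.23% (1.07 to 1.42) and a templated 23-nt form at 4.48% (4.16 to 4.82). The templated 23-nt form was at 0.0813% to 0.0916% in TS-GAIIx, 1.20% to 1.29% in v1.5-GAIIx, 0.205% in TS-HiSeq-ML and 2.80% in NF-HiSeq-ML. The NEXTflex reads were trimmed by 4 bases at each end to remove the random adapter bases, and the part of this step in the added bases was not tested. The NEXTflex libraries also held fewer kinds of miR-22-3p read, with 68 distinct alignments in NF-HiSeq-6 and 52 in NF-HiSeq-ML against 130 to 250 in the others, but also fewer reads of it (15322 and 5252 against 28671 to 512924). For miR-22-5p, NF-HiSeq-6 had 18 distinct alignments from 1163 reads and NF-HiSeq-ML 13 from 898. The v1.5-GAIIx libraries had 64, 29 and 29 from 1240, 1233 and 1159 reads, and TS-HiSeq-ML had 31 from 1186. The TS-GAIIx libraries had 10 to 16, from only 238 to 424 reads.

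**Figure D4:**
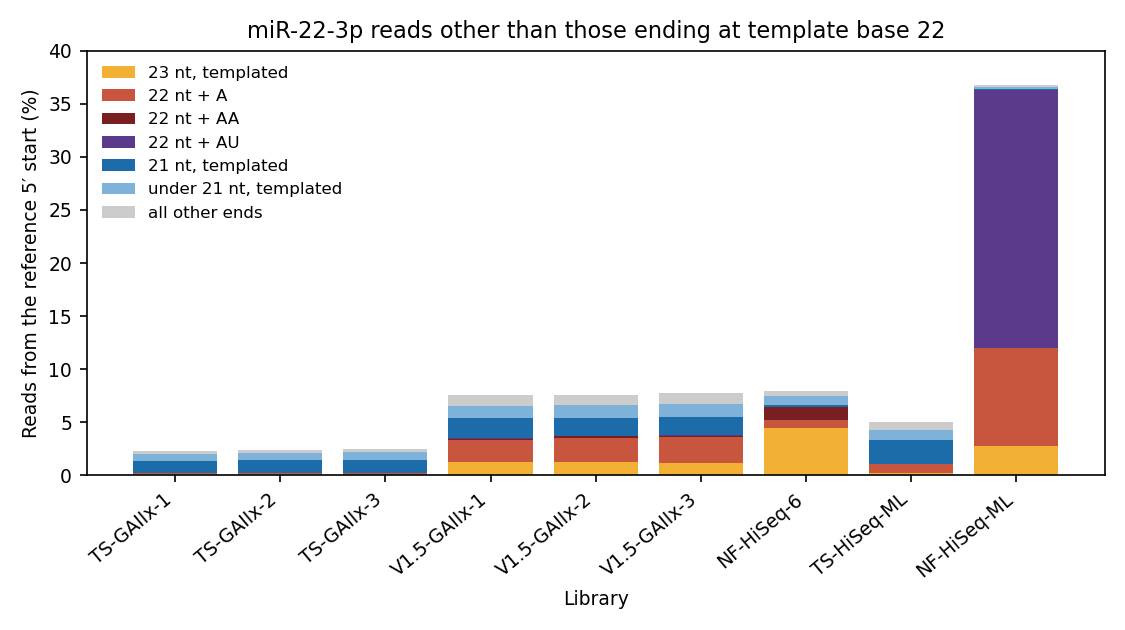
Share of miR-22-3p reads from the reference 5′ start whose 3′ end is not template base 22, stacked by kind of end, in each library. The stacks are lowest in TS-GAIIx, and the stack of NF-HiSeq-ML is dominated by the AU form (24.3%) and the A form (9.16%).

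These ends set the mean length of miR-22-3p. It was 21.978, 21.977 and 21.976 nt in TS-GAIIx and 21.999, 22.003 and 22.004 nt in v1.5-GAIIx. The difference of 0.0248 nt (SE 0.00349) passed the test (limma adjusted p = 0.000635), but so did those of 213 of 262 miRNAs (81.3%), and with exact alignments alone, which hold no untemplated base, it turned to -0.00701 nt. NF-HiSeq-6 had a mean of 22.05 nt and TS-HiSeq-ML of 21.97 nt. NF-HiSeq-ML, with its longer forms, was at 22.60 nt.

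The commonest 3′ end held a smaller share of reads in miR-22-5p than in miR-22-3p in each library. In MIN6 the length of miR-22-5p differed more between TS-GAIIx and v1.5-GAIIx than that of miR-22-3p. In liver the mean length of miR-22-5p was 21.26 nt with TruSeq and 21.37 nt with NEXTflex, closer together than the means of miR-22-3p. In all 9 libraries its commonest end was at template base 21 (38.9% to 55.2% of reads), and the kits differed in what stood beside it. Reads that ended at template base 20 made up 30.7%, 32.9% and 38.2% in TS-GAIIx, against 5.24%, 5.03% and 4.92% in v1.5-GAIIx. The order was the reverse for the end at base 22, with 14.7%, 17.8% and 16.3% in TS-GAIIx and 33.5%, 36.7% and 37.4% in v1.5-GAIIx.

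The mean length of miR-22-5p was 20.66, 20.76 and 20.71 nt in TS-GAIIx and 21.36, 21.40 and 21.38 nt in v1.5-GAIIx. The reads were 0.667 nt longer in v1.5-GAIIx (SE 0.0309, limma adjusted p = 2.21e-06), rank 12 of 262 in the same order, and of the 262 differences 121 (46.2%) were called longer in v1.5-GAIIx and 92 (35.1%) shorter. The median difference of the 262 was 0.045 nt. In NF-HiSeq-6 the end at base 20 had 0 of 1163 reads, which allows up to 0.258%, and the ends at bases 21 and 22 had 52.9% (50.0 to 55.7) and 47.1% (44.3 to 50.0). The liver libraries were closer to each other, with 10.5% (8.84 to 12.3) of reads ending at base 20 in TS-HiSeq-ML and 11.6% (9.65 to 13.8) in NF-HiSeq-ML. The templated 23-nt end was at 9.35% (7.62 to 11.4) in NF-HiSeq-ML and 1.94% (1.30 to 2.89) in TS-HiSeq-ML.

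**Figure D5:**
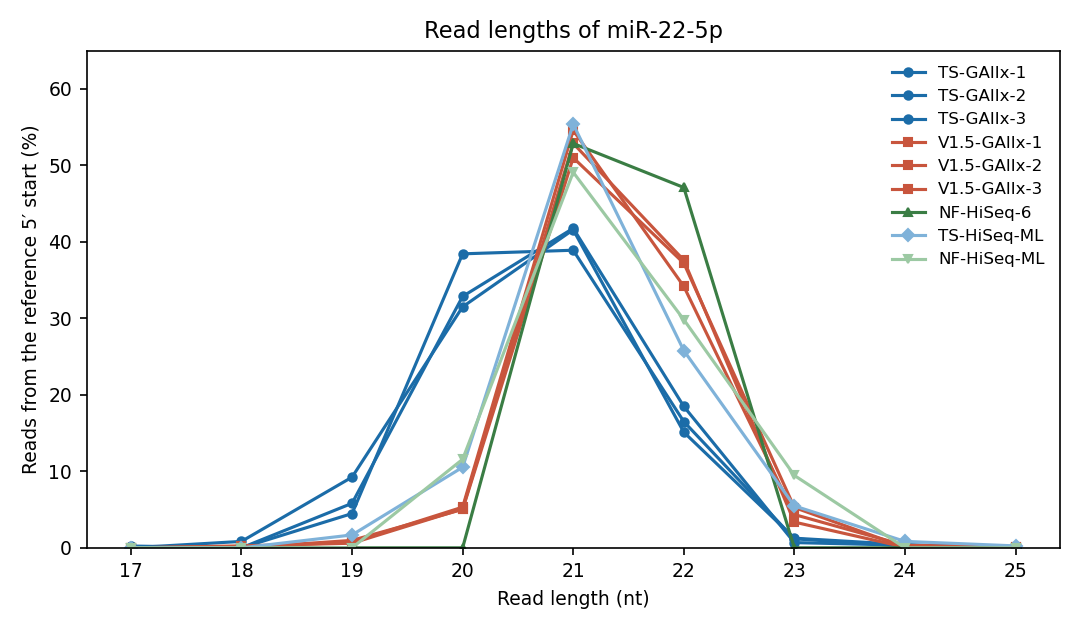
Length of miR-22-5p reads from the reference 5′ start, in nt, as percent of those reads in each library. The TS-GAIIx curves are broad from 20 to 21 nt, the v1.5-GAIIx and NF-HiSeq-6 curves lie at 21 and 22 nt, and the liver curves fall between them at 20 nt.

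Untemplated A at the end of miR-22-5p also differed between TruSeq and v1.5. It was on 0 of 238, 0 of 292 and 1 of 424 reads in TS-GAIIx, and on 41 of 1240, 45 of 1233 and 33 of 1159 reads in v1.5-GAIIx (3.31%, 3.65% and 2.85%). The log2 odds were 3.87 higher in v1.5-GAIIx (SE 0.31, limma adjusted p = 2.27e-05), a size that depends on the constant added to the near-absent TruSeq counts. It was 5.55 with 0.1 added and 2.26 with 2 added, and the call held in both. TS-HiSeq-ML had 53 of 1186 reads (4.47%), so that a TruSeq library of liver did hold this form, whereas it was on 0 of 1163 reads in NF-HiSeq-6 and 0 of 898 in NF-HiSeq-ML, with the same limits for a count of 0 as above.

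Untemplated U at the end of miR-22-5p rested on 1, 2 and 2 reads in TS-GAIIx and 4, 6 and 4 reads in v1.5-GAIIx. The log2 odds were -0.70 (SE 0.23) in v1.5-GAIIx relative to TS-GAIIx with an adjusted p of 0.0374 by limma. This call was lost without TS-GAIIx-1 (adjusted p = 0.0569), TS-GAIIx-2 (0.0922), V1.5-GAIIx-1 (0.121) or V1.5-GAIIx-3 (0.106), with log2 differences between -0.86 and -0.54 over the 6 libraries left out in turn.

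The 5′ start sets the seed, and nearly all reads of miR-22-3p kept the reference start. Within the window of 5 nt it held 99.5% of reads in each TS-GAIIx library and 99.1%, 99.2% and 99.1% in v1.5-GAIIx. Shifted starts had 1.59 times the odds in v1.5-GAIIx (log2 difference 0.67, SE 0.07, limma adjusted p = 0.000382), and of 153 miRNAs called by this test (58.4% of 262), 78 (29.8%) were higher and 75 (28.6%) lower. The largest part was miR-22-3p+1, which lacks the first A and so has a seed moved by 1 base. It was at 198, 195 and 192 RPMM in TS-GAIIx and at 25.4, 21.4 and 21.2 RPMM in v1.5-GAIIx, a ratio of 8.28 between the group means. It was at 12.4 RPMM in TS-HiSeq-ML, at 4.31 RPMM in NF-HiSeq-ML, and had no read in NF-HiSeq-6. As a share of the window it was 0.448% to 0.467% in TS-GAIIx and 0.632% to 0.762% in v1.5-GAIIx.

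A start 1 nt upstream was the commoner shift in some of the HiSeq libraries. It had 2.20% (1.98 to 2.44) of the miR-22-3p reads in NF-HiSeq-6 and 0.920% (0.851 to 0.996) in TS-HiSeq-ML, against 0.0454% to 0.0531% in TS-GAIIx, 0.0247% to 0.0346% in v1.5-GAIIx and no read in NF-HiSeq-ML. For miR-22-5p the upstream start had 96 of 994 reads, or 9.66% (7.97 to 11.7), in NF-HiSeq-ML, 11 of 1200 in TS-HiSeq-ML and 0 of 1163 in NF-HiSeq-6. Shifted starts of miR-22-5p were few in the GAIIx libraries, with 1, 3 and 4 reads in TS-GAIIx and 3, 3 and 7 reads in v1.5-GAIIx. Their log2 difference of -1.32 (SE 0.42, limma adjusted p = 0.0378) was not called without TS-GAIIx-2 (0.106), TS-GAIIx-3 (0.0979), V1.5-GAIIx-1 (0.112) or V1.5-GAIIx-2 (0.111).

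The commonest mismatches inside the reads of miR-22-3p did not follow the kit. Positions are counted from 1 at the 5′ end of the reference sequence, whose base is written first. The change A2C, in the seed, was on 3.17% of reads in TS-GAIIx-1 and 3.55% in TS-GAIIx-2, but on 0.0187% in TS-GAIIx-3. In the first 2 libraries a C mismatch at base 2 had a median of 0.0153% and 0.0156% over 215 and 218 miRNAs, of which miR-22-3p ranked 10 and 11. V1.5-GAIIx-1 had C4A at 0.550%, C4U at 0.521% and C4G at 0.338%. NF-HiSeq-6 had G3A at 0.875% (0.739 to 1.03) and G10A at 0.542% (0.437 to 0.671), each the highest of 229 miRNAs for that base and position. In the other libraries G3A was at 0.0174% to 0.0355%, and G10A at 0.00624% to 0.177%. No genome variant was called, and the part of sequencing cycles or of amplification in these mismatches was not tested.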

How the data were processed

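The authors trimmed adapters with cutadapt and aligned reads to the mouse genome with Bowtie, build mm9 (versions not given in the sources used here). They deposited, for each of 9 libraries, the position, mismatches and expected count of every distinct alignment, in which a read with several places was divided among them. These expected counts were summed here by 5′ end and divided by the mapped reads of the study to give RPMM. The sums exceeded the mapped reads by 0.264% to 8.41%. All 358 MIN6 and 178 liver entries were placed by value (relative tolerance 3e-05), 13 and 4 of them at more than 1 position, neither arm of miR-22 among these.

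Mean read length and log2 odds (0.5 added to both counts) of an untemplated last A or U and of a start up to 5 nt away were compared between 3 v1.5-GAIIx and 3 TS-GAIIx libraries with limma 3.58.1 (R 4.3.3, variance trend on log2 mean reads). Benjamini-Hochberg adjustment was over the 262 reference starts with at least 100 RPMM in a MIN6 library. limma was tested on simulated data. Factors of edgeR 4.0.16 and DESeq2 1.42.0, from counts rounded to whole numbers, served as other scalings. Tables and figures used Python 3.11.15, pandas 2.3.3, SciPy 1.17.1 and matplotlib 3.10.9. The text names both arms, the 5 miRNAs most alike each, miR-30e-5p and markers. Members, lists and tests were chosen with earlier results of these data known.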

Additional observations from a re-analysis of the deposited data

Results flagged for a closer look

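Of 20 measures of level, end and start of the arms, 7 had NF-HiSeq-6 on one side of all 3 TS-GAIIx libraries and NF-HiSeq-ML on the other side of TS-HiSeq-ML. With 1 library for each protocol in liver and 1 NEXTflex library of MIN6, these differences between MIN6 and liver were not tested, and in 4 of the 7 the values do not settle the opposite direction beyond counting error, as given below. NEXTflex minus TruSeq was 24.3 percentage points in liver and -0.00716 in MIN6 for an untemplated last U of miR-22-3p. In MIN6 this rests on 0 of 15322 reads in NF-HiSeq-6, which allows up to 0.0196%, above the TS-GAIIx shares of 0.00590% to 0.00855%, so that no direction is shown there. For the start of miR-22-3p 1 nt upstream it was -0.920 percentage points in liver and 2.15 in MIN6, and for the start 1 nt downstream 0.862 and -0.459. The level of miR-22-5p differed by -9.51 RPMM in liver and 7.60 RPMM in MIN6. The interval of NF-HiSeq-6 overlapped that of TS-GAIIx-2, and with reads on listed miRNAs as denominator the MIN6 ratio was 0.999, so that the opposite direction was lost. For miR-22-5p reads that ended at template bases 20, 21 and 23, the differences were 1.13, -6.12 and 7.41 percentage points in liver and -33.9, 12.1 and -0.569 in MIN6. The liver intervals overlapped for the end at base 20 (8.84% to 12.3% and 9.65% to 13.8%). For the end at base 21 they nearly touched, at 52.385% to 58.036% in TS-HiSeq-ML and 45.850% to 52.376% in NF-HiSeq-ML. These intervals leave out the effect of PCR copies. The end at base 23 had 1, 1 and 4 reads in TS-GAIIx and 0 of 1163 in NF-HiSeq-6, and the limit of 0.258% for a count of 0 lies within the intervals of TS-GAIIx-1 (0.0742% to 2.34%) and TS-GAIIx-2 (0.0605% to 1.91%).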

How the results depend on the processing

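Of 207 alternative values of 18 results, 177 kept their direction and side of the threshold or moved by less than the spread. With reads on listed miRNAs as denominator, miR-22-3p was 84.6 times higher in TS-GAIIx than in NF-HiSeq-6 and 18.7 times higher in liver TruSeq than in liver NEXTflex, and the ratios of miR-22-5p were 0.999 and 1.96. With the sum of all counts, those of miR-22-3p were 68.0 and 10.1. All starts within 5 nt gave 69.3 for miR-22-3p in MIN6 and 1.05 for miR-22-5p in liver, and exact alignments gave 16.3 for miR-22-3p in liver. The ratio of TS-GAIIx over v1.5-GAIIx was 18.2 (TMM) and 20.1 (DESeq2) for miR-22-3p and 0.512 and 0.562 for miR-22-5p. The length difference of miR-22-3p turned to -0.00701 nt with exact alignments, which hold no untemplated base. With at least 500 RPMM, fewer miRNAs were tested, miR-22-5p was not among them, and calls were 125 for length, 115 for A, 111 for U and 94 for starts, against 213, 175, 185 and 153. The calls of miR-22-5p for U and shifted starts were lost with whole-number counts (-0.70 and -1.32) and with 0.1 added (-0.50 and -1.21), for reasons not tested, and ranged from -0.86 to -0.54 and from -1.71 to -1.11 when single libraries were left out. With the replicate number as a block, the difference in untemplated A of miR-22-3p was 3.87 (adjusted p = 7.07e-08) and the calls were 211, 169, 186 and 132. No call of either arm changed. Same-numbered libraries correlated by 0.0947, 0.187 and 0.191, so the numbers were not taken to pair them, although each library correlated best with its own number. Depth limits miR-22-5p, with 238 to 1240 reads per library.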
